A study of Mus musculus with 8 samples.

Results

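The genes described here are the cytochrome P450 (Cyp) genes measured in colon epithelial cells of mice. They were chosen by name alone: a gene belongs to the set when its row on the array has a single symbol made of Cyp, a family number, a subfamily letter and a gene number. This gave 89 genes of 19505 in all, each with 1 row. The study compared 4 groups of C57BL/6J mice: SMS2 knockout mice given 3.5% dextran sulfate sodium (DSS) in drinking water for 2 days, untreated SMS2 knockout mice, wild-type (WT) mice given the same DSS, and untreated WT mice. SMS2 (gene symbol Sgms2) makes sphingomyelin from ceramide, and DSS is a chemical that injures the lining of the colon. Each group held 2 Affymetrix arrays, labelled as biological replicates. The labels used here give no age and do not say if an array held RNA of 1 mouse or of several. P-values therefore measure only the spread between these samples.

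P450 enzymes are haem proteins that insert an oxygen atom into their substrates. Most sit in the endoplasmic reticulum and take electrons from cytochrome P450 reductase, and a few sit in mitochondria and use ferredoxin. Families 1, 2 and 3 oxidise mainly drugs and other foreign chemicals, and also arachidonic acid, family 4 oxidises fatty acids and eicosanoids such as leukotrienes, and the families of higher number make or break down bile acids, steroids, retinoic acid and vitamin D. In the gut they are known for oxidising foreign chemicals before these reach the liver and for shaping local eicosanoids.

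The results turn on a few genes that were lower with DSS, and the sequences of 4 genes are shown. Cyp2c55, Cyp2c65 and Cyp2c66 follow each other on chromosome 19 with no other protein-coding gene between them. Cyp2c65 and Cyp2c66 were lower with DSS and Cyp2c55 did not pass the test, so their upstream sequences are given side by side; whether their changes differ was not tested. Cyp2d26, on chromosome 15, is shown because it passed the test in more comparisons than any other member. Each line gives the 250 bases upstream of the annotated start, 5′ to 3′ on the gene's own strand, from RefSeq (GRCm38.p6): chr19:39006769-39007018 on the plus strand for Cyp2c55, chr19:39060756-39061005 on the plus strand for Cyp2c65, chr19:39113648-39113897 on the plus strand for Cyp2c66 and chr15:82794246-82794495 on the minus strand for Cyp2d26. Capitals mark matches, on either strand, to the letters TTTAT (the core bound by CDX factors, intestinal transcription factors), CAAAGTCCA (a site of HNF4, an intestinal and hepatic nuclear receptor) and GTTAAT (half-site of HNF1).
Cyp2c55: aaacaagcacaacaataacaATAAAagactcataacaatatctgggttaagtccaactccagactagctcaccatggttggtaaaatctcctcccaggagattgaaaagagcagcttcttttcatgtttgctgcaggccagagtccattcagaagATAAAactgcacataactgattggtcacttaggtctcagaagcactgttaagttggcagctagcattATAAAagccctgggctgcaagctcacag
Cyp2c65: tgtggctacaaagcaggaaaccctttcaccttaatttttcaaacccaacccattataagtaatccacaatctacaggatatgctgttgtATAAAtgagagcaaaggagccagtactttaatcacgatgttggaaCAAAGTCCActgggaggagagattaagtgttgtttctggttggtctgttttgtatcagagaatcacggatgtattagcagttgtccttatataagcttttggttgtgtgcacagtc
Cyp2c66: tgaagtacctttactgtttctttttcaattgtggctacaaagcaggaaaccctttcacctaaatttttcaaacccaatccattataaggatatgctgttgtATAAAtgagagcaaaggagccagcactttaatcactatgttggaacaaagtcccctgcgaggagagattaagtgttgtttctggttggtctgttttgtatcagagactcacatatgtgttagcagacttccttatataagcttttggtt
Cyp2d26: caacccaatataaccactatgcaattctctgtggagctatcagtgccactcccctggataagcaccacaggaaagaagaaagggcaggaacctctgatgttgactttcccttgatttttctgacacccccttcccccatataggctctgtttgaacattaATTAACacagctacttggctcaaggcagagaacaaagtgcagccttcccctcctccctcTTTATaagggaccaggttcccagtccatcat

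A match is only a description of these letters. TTTAT was found in all 4 windows, 3 times in Cyp2c55, and occurs in 37.3% of 32851 promoter windows of the same length. In Cyp2c55 the match nearest the start lies at positions -28 to -24, and in Cyp2d26 the only match lies at -31 to -27. Core promoter elements usually lie there, and these letters alone do not tell such an element from a CDX site. Binding of CDX factors was not tested. TTTAT was found in 22 of the 32 tested P450 genes that have a window. The percentages of all windows count single windows, while a P450 gene counts if any of its windows matches. Related P450 genes also share sequence, so the percentages and the counts are not like for like. CAAAGTCCA occurs in 0.384% of all windows and in 6 of those 32 (Cyp2c40, Cyp2c65, Cyp2c67, Cyp2c68, Cyp2c69 and Cyp3a11). In Cyp2c65 it lies at positions -116 to -108 from the start. GTTAAT occurs in 6.43% of all windows and in 6 of the 32 (Cyp2c40, Cyp2c68, Cyp2c69, Cyp2d26, Cyp4f14 and Cyp4f40). The dioxin response core GCGTG occurs in 28.2% of all windows and in 6 of the 32, and the nuclear receptor half-site AGGTCA in 14.0% and in 4 of the 32. The PPAR direct repeat, 2 copies of that half-site with 1 base between them, occurs in 0.0335% of all windows and in none of the 32. The letters of Cyp2c65 and Cyp2c66 were identical at 208 of 279 aligned columns (74.6%). For Cyp2c55 the counts were 142 of 267 (53.2%) with Cyp2c65 and 132 of 269 (49.1%) with Cyp2c66. Aligned with Cyp2d26, which lies on another chromosome, Cyp2c55 gave 49.1%, Cyp2c65 43.7% and Cyp2c66 44.6%. The percentage of Cyp2c55 and Cyp2c66 was therefore no higher than that of Cyp2c55 and Cyp2d26. Transcripts of neighbouring P450 genes may also be alike, which was not computed here. Signal shared between near-identical P450 genes on the array was not measured here. Single members of the Cyp2c, Cyp2d and Cyp4f subfamilies are uncertain to that extent.

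All values are log2 signals as deposited. Several facts of the whole series bear on them. Sgms2 read 6.47 to 7.35 on the 4 knockout arrays and 10.76 to 11.27 on the 4 WT arrays, so the genotype labels held. The 11 markers of colon epithelium were above background on every array, with means between 16.74 and 16.93. Fibroblast markers were higher on DSS arrays than on untreated arrays of the same genotype (means 12.38 and 11.55 in knockout with DSS, 10.44 and 10.05 in untreated knockout, 11.60 and 12.26 in WT with DSS, 8.46 and 8.87 in untreated WT), and all 8 of them were called higher with DSS averaged over genotypes, as were 5 of 7 tested macrophage and dendritic cell markers and 6 of 6 endothelial markers. Pancreatic markers averaged 12.97 on the first WT array with DSS and 8.44 on the first knockout array with DSS, against 6.55 to 7.12 on the other 6. Smooth muscle markers averaged 14.63 and 12.48 in knockout with DSS, 13.33 and 13.69 in untreated knockout, 12.60 and 12.01 in WT with DSS, and 10.96 and 12.03 in untreated WT, and none of the 7 was called in any comparison. Of 10 small intestine enterocyte markers 8 were tested, and with DSS averaged over genotypes 3 were called lower (Sis, Fabp6 and Fabp2) and 1 higher (Anpep). Of 9 liver markers, 3 or 4 were above background on each array, with list means of 6.14 to 6.69. Apoa1, Apoa2, Ahsg and Fgb were below background on every array, Trf was called higher with DSS in WT (2.01), and Serpina1a was called higher in the knockout without and with DSS (1.36 and 1.42). The 3 Y-linked genes averaged 8.99 to 9.95 on the 4 DSS arrays and 3.75 to 3.90 on the 4 untreated arrays, below background there. DSS and the presence of Y-linked transcripts therefore cannot be told apart in any comparison of DSS with untreated arrays, and several mouse P450 genes are known to differ between males and females in liver. In such bulk RNA, fewer cells of a type and less RNA per cell cannot be told apart either.

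Much of the P450 repertoire was not detected in these cells. Background was set at the 75th percentile of 5222 negative-control rows, 6.00 to 6.24 on single arrays. Of the 89 genes, 26 were above it on all 8 arrays, 53 on none, and 10 on some arrays. Genes with a mean signal below 5.15, the dimmest 33.3%, were not tested, so 45 of the 89 genes were tested and 44 were not. Members just inside that limit had means from 5.24 upwards and members just outside had means up to 5.12.

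Presence differed by family. Of the 46 members of family 2, 26 were tested and 16 were above background on all arrays, and of the 16 members of family 4, 9 were tested and 6 were above background on all arrays. Of 7 members of family 3, only Cyp3a13, the Cyp3a gene known from mouse intestine, was above background on all arrays. None of the 3 members of family 1 passed the filter. Cyp1a1, the classical target of the aryl hydrocarbon receptor, read 3.51 and 3.52 in knockout with DSS, 3.50 and 3.43 in untreated knockout, 3.36 and 3.53 in WT with DSS, and 3.05 and 3.19 in untreated WT. All 8 of its values lay below background. Many genes of cholesterol, bile acid, steroid, vitamin D and retinoic acid metabolism, in families 7, 8, 11, 17, 21, 24, 26 and 46, were also below background on every array. Of these, Cyp7a1, Cyp7b1 and Cyp24a1 passed the filter. The others include Cyp11a1 and Cyp11b1, which begin and complete glucocorticoid synthesis, and Cyp26a1 and Cyp26b1, which break down retinoic acid. Cyp20a1, an orphan P450, Cyp27a1, a mitochondrial sterol side-chain hydroxylase, and Cyp39a1, an oxysterol hydroxylase of bile acid synthesis, were above background on all 8 arrays. Cyp39a1 read 10.99 and 11.82 in knockout with DSS, 10.998 and 10.65 in untreated knockout, 11.49 and 11.55 in WT with DSS, and 11.47 and 11.12 in untreated WT, and it passed no test.

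**Figure D1:**
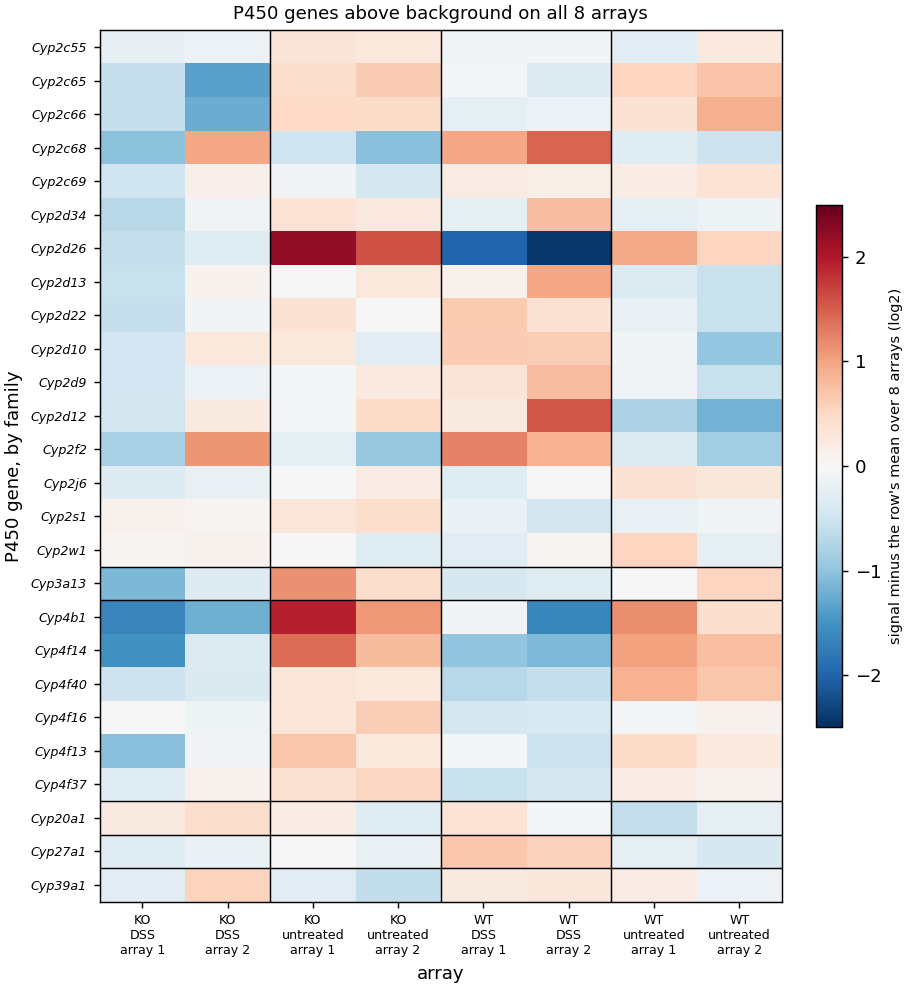
Log2 signal of the 26 P450 genes above background on all 8 arrays, minus that gene's mean over the 8 arrays (colour), with genes in rows by family and single arrays in columns. Cyp2d26, Cyp4b1, Cyp4f13, Cyp4f14, Cyp4f40, Cyp2c65, Cyp2c66 and Cyp3a13 are below their own mean on every DSS array and above it on every untreated array.

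DSS treatment was compared with no treatment over both genotypes, which uses all 8 arrays. Of the 45 tested P450 genes, 8 were called lower with DSS and none higher. The 8 were Cyp2d26, Cyp4b1, Cyp4f14, Cyp4f40, Cyp2c65, Cyp2c66, Cyp3a13 and Cyp4f18. They made up 17.8% of the tested P450 genes, where 2.05% of all 13003 tested genes were called lower and 3.47% higher (limma, adjusted p under 0.05). The median change of the 45 was -0.12, against -0.04 for all tested genes. The DSS arrays lay wholly above the untreated ones for 2 of the 45 genes and wholly below them for 11, where 4.76% and 5.67% of all genes did so. At an unadjusted p under 0.05 (limma), 8 of the 45 genes were higher (17.8%) and 13 lower (28.9%). Of all tested genes, 8.32% were higher and 9.24% lower at that threshold, so P450 genes exceeded both shares. Among these P450 genes, family 2 had 5 higher and 4 lower members and family 4 had 7 lower.

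Cyp2d26 (TC1500001957.mm.2), of a subfamily of drug-metabolising enzymes, read 11.63 and 11.93 in knockout with DSS and 10.25 and 9.83 in DSS-treated WT, against 14.45 and 13.82 in untreated knockout and 13.18 and 12.78 in untreated WT. Every DSS array lay below every untreated array of either genotype. Averaged over genotypes Cyp2d26 changed by -2.65 ± 0.20 (limma, SE; adjusted p = 3.13e-05).

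Family 4, the fatty acid and eicosanoid hydroxylases, held 4 of the 8 genes. Of its 9 tested members, 4 fell, none rose, and 8 had a negative change, with a median of -0.69. All 7 tested members of the Cyp4f subfamily had a negative change, as did 7348 of all 13003 tested genes. All of them but Cyp4f18 lie on chromosome 17, and Cyp4f genes may share signal.

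Cyp4b1 (TC0400003321.mm.2), which oxidises fatty acids and activates some foreign chemicals, read 9.28 and 9.70 in knockout with DSS and 10.86 and 9.29 in DSS-treated WT, against 12.87 and 11.9995 in untreated knockout and 12.08 and 11.32 in untreated WT. The arrays with DSS did not overlap the untreated arrays. The average change was -2.29 ± 0.33 (limma, adjusted p = 0.00168). Cyp4f14 (TC1700001856.mm.2), a leukotriene hydroxylase in mouse, read 11.93 and 13.09 in knockout with DSS and 12.44 and 12.33 in DSS-treated WT, against 14.83 and 14.22 in untreated knockout and 14.43 and 14.19 in untreated WT. The second knockout array with DSS was the highest of the 4 DSS arrays and still below every untreated array. Cyp4f14 changed by -1.97 ± 0.25 (adjusted p = 0.000685).

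Cyp4f40 (TC1700000566.mm.2), another member of that subfamily, read 10.78 and 10.92 in knockout with DSS and 10.60 and 10.72 in DSS-treated WT, against 11.58 and 11.56 in untreated knockout and 12.15 and 11.98 in untreated WT. The groups did not overlap, and the change was -1.06 ± 0.15 (limma, adjusted p = 0.00168). Cyp4f18 (TC0800002447.mm.2), which oxidises leukotriene B4 in mouse myeloid cells, read 6.10 and 6.28 in knockout with DSS and 5.97 and 6.26 in DSS-treated WT, against 7.11 and 6.66 in untreated knockout and 6.88 and 6.72 in untreated WT. The DSS values were close to background, and only 6 of the 8 arrays were above it. Its change of -0.69 ± 0.17 (adjusted p = 0.041) was the smallest of the 8. Its adjusted p was between 0.0571 and 0.192 when any 1 of 7 arrays was left out, the exception being the second knockout array with DSS. Neutrophil markers were below background on every array. Among macrophage and dendritic cell markers, 5 of 7 tested were called higher with DSS averaged over genotypes. The part of myeloid cells in the Cyp4f18 values was not tested. Cyp4f13 read 9.70 and 10.68 in knockout with DSS and 10.72 and 10.22 in DSS-treated WT, against 11.44 and 10.997 in untreated knockout and 11.20 and 10.98 in untreated WT. It changed by -0.83 ± 0.23 without passing (adjusted p = 0.0678), although its DSS and untreated arrays did not overlap. It passed when the second knockout array with DSS was left out, at -1.07 (adjusted p = 0.00947).

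The pair of neighbouring Cyp2c genes also fell. The Cyp2c subfamily oxidises arachidonic acid, linoleic acid and foreign chemicals. Cyp2c65 (TC1900000563.mm.2) read 14.37 and 13.59 in knockout with DSS and 14.89 and 14.59 in DSS-treated WT, against 15.38 and 15.58 in untreated knockout and 15.47 and 15.65 in untreated WT. Cyp2c66 (TC1900000564.mm.2) read 11.71 and 11.06 in knockout with DSS and 12.05 and 12.16 in DSS-treated WT, against 12.80 and 12.77 in untreated knockout and 12.66 and 13.18 in untreated WT. For both genes the second knockout array with DSS was the lowest of the 8, and no DSS array reached an untreated one. The change was -1.16 ± 0.20 for Cyp2c65 (limma, adjusted p = 0.00519) and -1.11 ± 0.20 for Cyp2c66 (adjusted p = 0.00614).

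Cyp2c55 (TC1900000561.mm.2), their upstream neighbour and an enzyme of arachidonic acid oxidation known from mouse colon, read 17.94 and 18.00 in knockout with DSS and 18.06 and 18.08 in DSS-treated WT, against 18.47 and 18.41 in untreated knockout and 17.86 and 18.39 in untreated WT. The groups overlapped, since the first untreated WT array was the lowest of all. The change was -0.26 ± 0.17, with a 95% interval from -0.64 to 0.11 (limma, adjusted p = 0.484). Within the knockout its DSS arrays lay below the untreated ones, at -0.47 ± 0.24 (adjusted p = 0.607). The difference between its change and those of Cyp2c65 and Cyp2c66 was not tested.

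Cyp3a13 (TC0500003466.mm.2) was the family 3 gene that fell. It read 11.67 and 12.45 in knockout with DSS and 12.38 and 12.47 in DSS-treated WT, against 13.93 and 13.21 in untreated knockout and 12.80 and 13.32 in untreated WT. The change was -1.07 ± 0.23 (limma, adjusted p = 0.0198) and the groups did not overlap. The call was lost without the second untreated WT array, either WT array with DSS, the first untreated knockout array or the first knockout array with DSS, with adjusted p between 0.0532 and 0.0923.

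**Figure D2:**
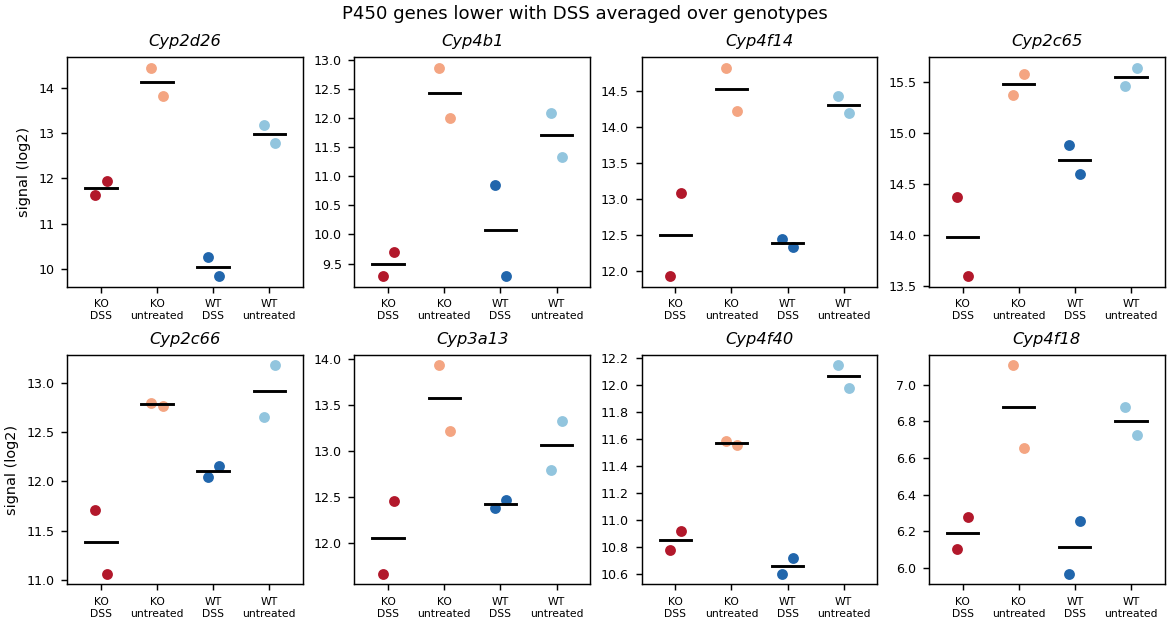
Log2 signal (vertical axes, each with its own range that does not start at 0) of the 8 P450 genes lower with DSS averaged over genotypes, for knockout (KO) with DSS, untreated KO, WT with DSS and untreated WT. Points are single arrays and bars are means of 2 arrays, and in each panel every DSS array lies below every untreated array.

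Cyp2d26, Cyp4b1, Cyp4f14, Cyp4f40, Cyp2c65 and Cyp2c66 kept this call when any single array was left out. Both arrays with the high pancreatic signal were also left out together, an alternative added after the data were seen. It leaves 1 array in each DSS group, which is assumed to vary like the untreated groups. Then 10 P450 genes passed, these 6 lower, and Cyp2f2, Cyp2c68, Cyp2c67 and Cyp2d12 higher, while Cyp3a13 and Cyp4f18 did not pass. The fibroblast, macrophage and endothelial markers given above moved with DSS in the opposite direction, and the small intestine enterocyte list had a median change of -0.55. Of the 11 colon epithelium markers 1 was called, Krt20, a keratin of differentiated surface colonocytes, at -0.94 ± 0.19 (limma, adjusted p = 0.012), and the list's median was -0.11. The part of these cells in the P450 changes was not tested.

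Within WT mice, 2 P450 genes rose with DSS and 3 fell. The background over all tested genes was 2.91% higher and 1.12% lower (limma). The 3 that fell were Cyp2d26, Cyp4f14 and Cyp4f40, whose values stand above. Cyp2d26 changed by -2.94 ± 0.29 (adjusted p = 0.000166), a 7.66-fold lower signal. Cyp4f14 changed by -1.93 ± 0.35 (adjusted p = 0.00947) and Cyp4f40 by -1.41 ± 0.22 (adjusted p = 0.0037). The median change of the 45 genes was 0.01, against -0.05 for all genes, and 23 of the 45 changes were positive. The WT arrays with DSS lay wholly above the untreated ones for 16 genes (35.6%) and wholly below for 13 (28.9%), where 20.3% and 24.1% of all genes did so.

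The gene with the largest positive change in WT was Cyp2d12 (TC1500000760.mm.2), which lies with Cyp2d26 in the Cyp2d cluster on chromosome 15. It read 8.88 and 10.19 in DSS-treated WT, against 7.88 and 7.46 in untreated WT. The arrays did not overlap, but the 2 DSS arrays were further apart than the DSS array nearest to the untreated ones was from them. Cyp2d12 changed by 1.86 ± 0.40 (limma, adjusted p = 0.0248). Cyp27a1 (TC0100000642.mm.2), the sterol side-chain hydroxylase, read 9.10 and 8.996 in DSS-treated WT, against 8.20 and 8.03 in untreated WT. The arrays of each group were close together, and Cyp27a1 changed by 0.94 ± 0.22 (adjusted p = 0.0395).

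These WT calls rest on few arrays. The count of 5 fell to 1, 2 and 2 without the first untreated WT array, the second untreated WT array and the second WT array with DSS, where Cyp2d26 alone, Cyp2d26 and Cyp4f40, and Cyp2d26 and Cyp4f40 passed. The Cyp27a1 call was lost without any single WT array (adjusted p 0.114 to 0.25) or either untreated knockout array (0.0753 each), when only the 4 WT arrays were fitted (0.0599), and without both arrays of high pancreatic signal (0.0592). Macrophages, which are known to carry Cyp27a1, had marker means of 6.91 and 7.14 in DSS-treated WT, against 5.67 and 5.58 in untreated WT, and of 7.53 and 6.94 in knockout with DSS, against 6.20 and 6.01 in untreated knockout. Cyp27a1 itself read 8.13 and 8.26 in knockout with DSS, against 8.44 and 8.25 in untreated knockout. The part of these cells in its values was not tested.

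Cyp2f2 and Cyp2c68 had the next largest positive changes in WT and did not pass. Cyp2f2 (TC0700000447.mm.2), best known as the naphthalene-activating enzyme of mouse lung club cells, read 10.43 and 12.34 in knockout with DSS, 10.98 and 10.29 in untreated knockout, 12.48 and 12.10 in WT with DSS, and 10.90 and 10.38 in untreated WT. Cyp2c68 (TC1900001478.mm.2) read 10.05 and 12.04 in knockout with DSS, 10.57 and 10.02 in untreated knockout, 12.02 and 12.53 in WT with DSS, and 10.76 and 10.54 in untreated WT. Both genes were high on the WT arrays with DSS and on the second knockout array with DSS, and at the untreated level on the first knockout array with DSS. Their changes in WT were 1.65 ± 0.50 for Cyp2f2 (limma, adjusted p = 0.104) and 1.63 ± 0.50 for Cyp2c68 (adjusted p = 0.111).

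The same arrays stood out in the list means of the posterior Hox genes, which mark the distal colon. Their means were 6.79 and 7.88 in knockout with DSS, 7.34 and 6.98 in untreated knockout, 8.37 and 8.32 in WT with DSS, and 7.22 and 7.17 in untreated WT. Single Hox genes differed widely. With DSS in WT, changes of the 6 tested ranged from 0.05 to 2.96, and 2 were called. Of the 7 Hox genes, 4 or 5 were above background on each array. The part of these Hox differences in the values of Cyp2f2 and Cyp2c68 was not tested. Without the first knockout array with DSS, both passed as higher with DSS averaged over genotypes, at 1.68 for Cyp2f2 (limma, adjusted p = 0.00195) and 1.69 for Cyp2c68 (adjusted p = 0.0011), as did Cyp2c67, which was above background on only 4 of the 8 arrays, so that its change is no exact size. Cyp2c67 read 5.88 and 7.37 in knockout with DSS, 5.70 and 5.89 in untreated knockout, 6.14 and 6.98 in WT with DSS, and 5.97 and 6.35 in untreated WT.

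Within SMS2 knockout mice, 5 P450 genes fell with DSS and none rose, against a background of 0.392% lower and 0.538% higher. The 5 were Cyp4b1, Cyp2d26, Cyp4f14, Cyp2c65 and Cyp2c66. Cyp4b1 changed by -2.94 ± 0.47 (limma, adjusted p = 0.0154) and Cyp2d26 by -2.36 ± 0.29 (adjusted p = 0.00463). Cyp4f14 changed by -2.02 ± 0.35 (adjusted p = 0.0239), Cyp2c65 by -1.50 ± 0.28 (adjusted p = 0.0357) and Cyp2c66 by -1.40 ± 0.28 (adjusted p = 0.0419). The arrays of the 2 knockout groups did not overlap, higher or lower, for 4 and 21 of the 45 genes, that is 8.89% and 46.7%, where 16.8% and 22% of all tested genes did so. The median change of the 45 was -0.35, against -0.04 for all genes, and 31 had a negative and 14 a positive change.

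Cyp4b1 changed by -1.63 ± 0.47 in WT without passing (adjusted p = 0.0893), and Cyp2c65 and Cyp2c66 by -0.82 each (adjusted p = 0.162 and 0.154). Cyp4f40 changed by -0.72 ± 0.22 in the knockout without passing (adjusted p = 0.228). None of these differences between genotypes passed the test of the difference itself, given below. Cyp3a13 changed by -1.51 in the knockout (adjusted p = 0.0634). Cyp3a25 (TC0500003601.mm.2) read 5.22 and 4.94 in knockout with DSS, against 7.61 and 5.87 in untreated knockout. Of these knockout arrays, only the first untreated one was above background. The mean of the untreated knockout group was at least 1.52-fold above the background of the DSS arrays, which rests on that array. The gene did not pass (limma, adjusted p = 0.225).

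The knockout calls depended on single arrays too. The count of 5 lay between 1 and 6 when 1 array was left out. It was 1 without the first untreated knockout array, where Cyp2d26 passed, 2 without the second, where Cyp2d26 and Cyp4b1 passed, and 3 without either untreated WT array or without the first knockout array with DSS. Without both arrays of high pancreatic signal, which leaves 1 knockout array with DSS, it was 7, with Cyp2f2, Cyp2c67 and Cyp2c68 called higher and Cyp4f14 not called.

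**Figure D3:**
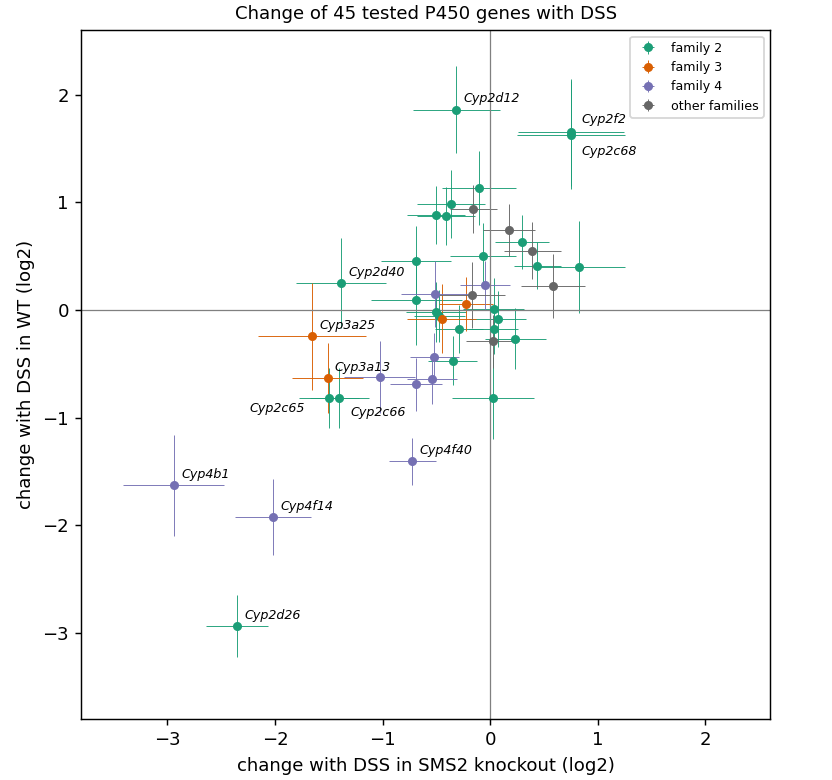
Change with DSS (log2, points with limma standard errors) of the 45 tested P450 genes in SMS2 knockout (horizontal) and in WT (vertical), coloured by family. Cyp2d26, Cyp4f14 and Cyp4b1 lie far below 0 on both axes, and Cyp2d12 lies at 1.86 in WT and -0.32 in the knockout.

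SMS2 knockout was compared with WT in each treatment. In untreated mice no P450 gene passed the limma test, where 0.392% of all tested genes did, and 5 of the 45 had an unadjusted p under 0.05, as did 6.32% of all genes. The knockout arrays lay wholly above the WT arrays for 15 genes and wholly below for 7, where 17.5% and 20.6% of all genes did so. Cyp2d12 had the largest change. It read 8.59 and 9.11 in untreated knockout, against 7.88 and 7.46 in untreated WT, a change of 1.18 ± 0.40 (adjusted p = 0.433). Cyp2d26 changed by 1.16 ± 0.29 (adjusted p = 0.153). Cyp2r1, the vitamin D hydroxylase of liver, changed by -1.05 ± 0.38 (adjusted p = 0.496) with all arrays below background. When only the 4 untreated arrays were fitted, Cyp2d12 and Cyp2r1 passed (limma, adjusted p = 0.0372 and 0.0349). No DSS array then enters the estimate of spread. Leaving out both arrays of high pancreatic signal gave the same spread, since each DSS group then holds 1 array. That result is therefore not particular to the pancreatic arrays.

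With DSS, Cyp2d26 was higher in the knockout and no other P450 gene passed, against a background of 0.115% higher and 0.238% lower. It read 11.63 and 11.93 in knockout with DSS, against 10.25 and 9.83 in WT with DSS, with no overlap. The arrays of the genotypes were wholly apart for 7 genes higher and 14 lower in the knockout, where 16.1% and 18.8% of all genes were. The change of Cyp2d26 was 1.74 ± 0.29 (limma, adjusted p = 0.0291). This call was lost without either untreated WT array, either WT array with DSS or either knockout array with DSS, with adjusted p between 0.0511 and 0.145. Without the second knockout array with DSS, Cyp2c68 and Cyp2f2 passed instead, at -2.23 and -1.86. Averaged over treatments, Cyp2d26 was again the only P450 gene that passed, at 1.45 ± 0.20 (adjusted p = 0.00912), against a background of 0.423% higher and 0.254% lower. Over both treatments its knockout and WT arrays overlapped, since its level on knockout arrays with DSS lay below that on untreated WT arrays. It did not pass without the second untreated WT array (adjusted p = 0.0596), and 3 genes passed without the second knockout array with DSS, the others being Cyp2c68 and Cyp2r1.

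Cyp2s1 (TC0700002646.mm.2), an epithelial P450 inducible by dioxin, was the single gene whose 4 knockout arrays all lay above its 4 WT arrays. It read 14.78 and 14.74 in knockout with DSS and 14.98 and 15.11 in untreated knockout, against 14.51 and 14.21 in WT with DSS and 14.49 and 14.59 in untreated WT. The change over both treatments was 0.45 ± 0.16 and did not pass (limma, adjusted p = 0.28). Among all tested genes, 1.87% had all knockout arrays above all WT arrays and 2.91% had them below, and of the 45 P450 genes 1 each did. The one below was Cyp2c69, at -0.44 ± 0.19 (adjusted p = 0.405).

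The difference between the DSS changes of knockout and WT was tested as an interaction. No P450 gene passed, where 0.0769% of all tested genes did, and 9 of the 45 had an unadjusted p under 0.05, as did 5.45% of all genes. The median of this difference was -0.37 over the 45 genes and -0.01 over all genes.

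The Cyp2d subfamily held 7 of those 9 genes, the others being Cyp27a1 and Cyp4f40. It has 8 members on the array, all tested, which lie in 1 cluster on chromosome 15 and may share signal. Cyp2d13 is not among the protein-coding genes of the annotation used here to order neighbours. In WT, 7 of the 8 had a positive change with DSS and Cyp2d26 a negative one, with a median of 0.88. In the knockout all 8 had a negative change, with a median of -0.46. Without DSS all 8 were higher in knockout than in WT, with a median of 0.57 and a range from 0.42 to 1.18, and none passed. In the same comparison all 8 fibroblast, all 7 smooth muscle and all 6 endothelial markers also had a positive change, with medians of 1.61, 1.91 and 1.32 and 3, 0 and 1 of them called. Their part in the Cyp2d values was not tested.

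Cyp2d12 read 8.19 and 8.88 in knockout with DSS and 8.59 and 9.11 in untreated knockout, so its arrays overlapped there, unlike in WT. The interaction was -2.18 ± 0.57 (limma, adjusted p = 0.369). Cyp2d22 read 9.66 and 10.16 in knockout with DSS, 10.59 and 10.24 in untreated knockout, 10.88 and 10.60 in WT with DSS, and 10.04 and 9.68 in untreated WT, which put the DSS arrays below the untreated ones in the knockout and above them in WT. The interaction was -1.38 (adjusted p = 0.398). Cyp2d9 read 8.81 and 9.15 in knockout with DSS, 9.24 and 9.55 in untreated knockout, 9.61 and 10.07 in WT with DSS, and 9.20 and 8.74 in untreated WT, with the same arrangement and an interaction of -1.28 (adjusted p = 0.49).

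Cyp2d13, Cyp2d34 and Cyp2d10 were apart in 1 genotype each. Cyp2d13 read 10.55 and 11.20 in knockout with DSS, 11.11 and 11.37 in untreated knockout, 11.22 and 12.06 in WT with DSS, and 10.77 and 10.54 in untreated WT. Its WT groups were apart and its knockout groups overlapped. Cyp2d34 read 11.81 and 12.41 in knockout with DSS, 12.84 and 12.76 in untreated knockout, 12.28 and 13.28 in WT with DSS, and 12.28 and 12.38 in untreated WT, with overlap in WT. Cyp2d10 read 9.45 and 10.21 in knockout with DSS, 10.21 and 9.66 in untreated knockout, 10.57 and 10.55 in WT with DSS, and 9.87 and 8.98 in untreated WT. Its arrays were apart in WT, at 1.13 ± 0.35 with DSS, and it did not pass (limma, adjusted p = 0.11). Cyp2d40 had its lowest value, 5.08, on the first knockout array with DSS and its highest, 7.40, on the first untreated knockout array, with background near 6. Its change with DSS in the knockout was -1.38 ± 0.42 and did not pass (limma, adjusted p = 0.225). Outside this subfamily, Cyp27a1 had an interaction of -1.09 (adjusted p = 0.477). Without both arrays of high pancreatic signal Cyp2d12 passed the interaction test, at -2.49 ± 0.43 (adjusted p = 0.0475), with 1 array left in each DSS group.

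**Figure D4:**
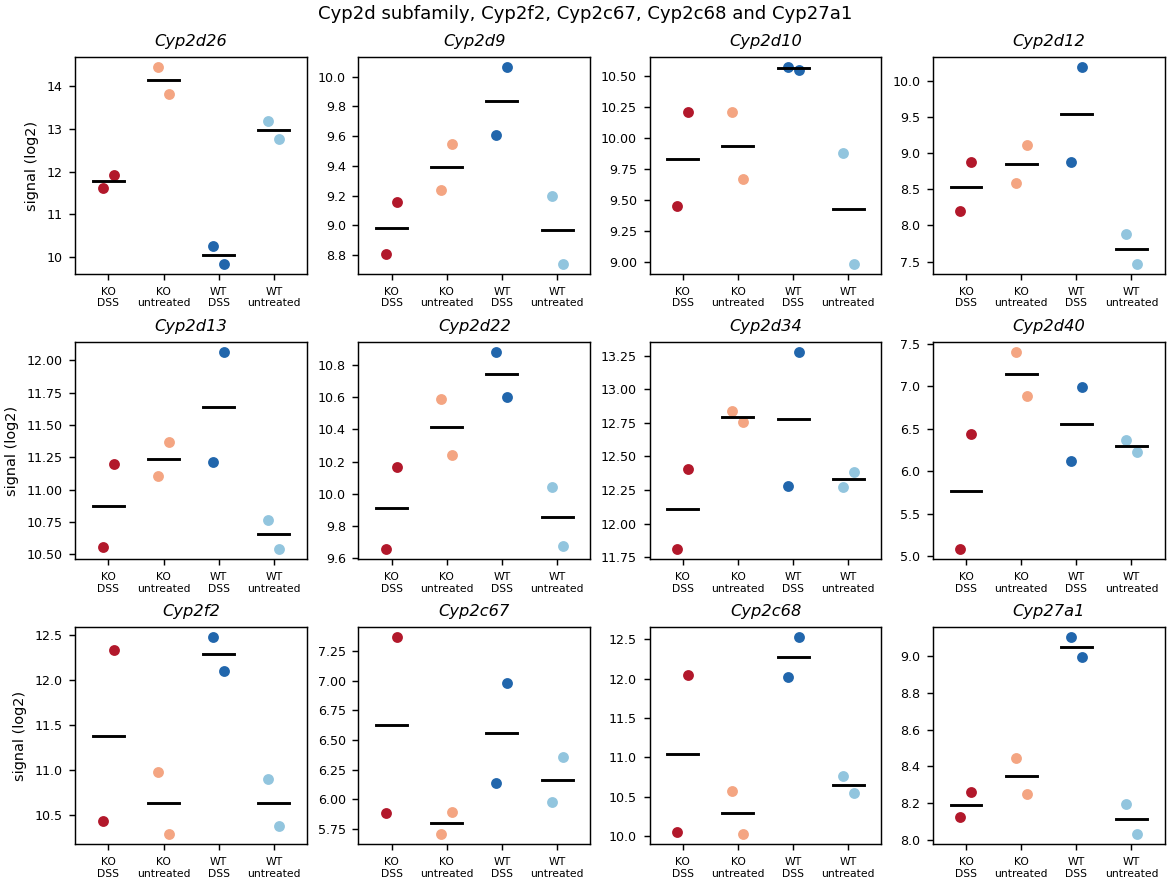
Log2 signal of the 8 Cyp2d genes and of Cyp2f2, Cyp2c67, Cyp2c68 and Cyp27a1 (vertical axes, each with its own range that does not start at 0) for knockout (KO) with DSS, untreated KO, WT with DSS and untreated WT. Points are single arrays and bars are means of 2 arrays, and Cyp2d26 is the panel whose WT arrays with DSS are the lowest of all 8.

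Other genes of the P450 system were listed by role. Of 15 partners in electron transfer and haem metabolism, 12 were tested. None passed the limma test in any of the 7 comparisons. At an unadjusted p under 0.05 there was 1 for DSS averaged over genotypes and 0 in the others. Of 29 regulators, 22 were tested. Ppara is the fatty acid receptor that drives Cyp4a genes in mouse liver. It read 8.02 and 8.57 in knockout with DSS and 7.64 and 7.70 in DSS-treated WT. Its untreated arrays read 9.28 and 9.30 in knockout and 9.17 and 9.32 in WT. The DSS arrays all lay below the untreated ones, and the average change was -1.29 ± 0.17 (limma, adjusted p = 0.00102). The Cyp4a members were below background on every array. Cyp4a14, the only one of them tested, changed with DSS by 0.23 in WT and -0.05 in the knockout. Whether Ppara had a part in any P450 change was not tested. Pparg, a related receptor, changed by -0.70 ± 0.17 (adjusted p = 0.0308), and no other regulator passed for DSS averaged over genotypes.

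Of 17 enzymes of retinoid and eicosanoid metabolism that act beside the P450 genes, 13 were tested. Aldh1a1, which makes retinoic acid, read 14.51 and 13.99 in knockout with DSS and 14.30 and 13.78 in DSS-treated WT, against 15.98 and 16.07 in untreated knockout and 15.20 and 15.59 in untreated WT. No DSS array reached an untreated one, and the change was -1.57 ± 0.20 (limma, adjusted p = 0.000602). Ptges, the inducible prostaglandin E synthase, rose by 1.25 ± 0.18 (adjusted p = 0.00191), and Aldh1a3, another retinoic acid synthase, by 1.03 ± 0.23 (adjusted p = 0.0218). Between genotypes, Rdh16, a retinol dehydrogenase, changed by -0.94 ± 0.18 and Dhrs9, another, by -1.47 ± 0.23 averaged over treatments (adjusted p = 0.0396 and 0.0158).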

How the data were processed

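RNA of colon epithelial cells was measured on 8 Affymetrix arrays, 2 in each of 4 groups taken from the sample labels. The authors deposited log2 signals made with Affymetrix Expression Console, per the submitters' processing notes. No source used here gives the normalization or background correction, so values were used as deposited, and an unknown scaling could move all changes of an array together.

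Of 28846 rows, 6640 were controls, and 19572 had 1 gene symbol, all matched by Entrez number to GRCm38.p6. The row of highest mean was kept per gene (19505 genes). The 13003 genes tested were modelled by 4 group means with limma 3.58.1 in R 4.3.3 (4 residual and 7.27 prior degrees of freedom), with two-sided tests and Benjamini-Hochberg adjustment over all genes, at a threshold of 0.05. The smallest p of an exact permutation test of 2 arrays against 2 is 0.333, so none was run. The number of arrays limits the precision. Promoter windows came from RefSeq (68 of 89 members had one), and were aligned with Biopython 1.88.

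The members, gene lists, motifs and naming rule were chosen with earlier results of these data known. Named were members past the threshold in any of 7 comparisons, those of highest mean, those of largest change per comparison, those with the largest replicate differences, and those whose arrays split by at least 1. Alternatives covered the filter, the rows kept, scaling, the variance model, a replicate block, the arrays fitted and each array left out.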

Additional observations from a re-analysis of the deposited data

How the results depend on the processing

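No P450 change that passed the test changed sign under the alternatives run. The number of P450 genes called with DSS averaged over genotypes (8) lay between 6 and 11 when 1 array was left out. For DSS in WT (5) the number was 1 to 7 with 1 array left out, and for DSS in the knockout (5) it was 1 to 6. It was 0 to 0 for knockout against WT without DSS (0), 0 to 2 with DSS (1), 0 to 3 averaged over treatments (1), and 0 to 0 for the interaction (0). Setting array medians equal or quantile normalization each gave 3 calls for DSS in the knockout. Fitting only the 4 arrays of a comparison gave 1 for DSS in the knockout and 2 for knockout against WT without DSS. Leaving out both arrays with pancreatic transcripts, chosen after seeing the data and leaving 1 array in each DSS group, gave 11 calls for DSS in WT, 2 for knockout against WT without DSS and 1 for the interaction. A threshold of 0.1, also chosen after seeing the data, gave 12 calls for DSS averaged over genotypes. The cause of these differences was not tested, beyond the fewer arrays in the fits that leave some out. All members have 1 row, so averaging a gene's rows changed none of their values.

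Replicate numbers are shared between groups, but the labels do not say that they pair samples, and the deviations of same-numbered arrays correlated with r between -0.246 and 0.276. With the replicate number as a block, 5 genes passed with DSS in WT, 4 with DSS in knockout mice, 7 with DSS averaged over genotypes, 1 for knockout against WT with DSS, 1 averaged over treatments, and 0 for the other 2 comparisons. In WT the block lost Cyp27a1 (adjusted p = 0.0599) and gained Cyp4b1 (limma, adjusted p = 0.0415), and in knockout mice it lost Cyp2c66 (adjusted p = 0.0609). Averaged over genotypes it lost Cyp4f18 (adjusted p = 0.0617). With 2 arrays per group and 53 of 89 genes at background on every array, small changes and changes in weakly detected genes were not detectable here.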
